A study of Arabidopsis thaliana with 12 samples.

Results

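The 10 genes described here are regulators of leaf polarity, the difference between the upper (adaxial) and lower (abaxial) faces of a leaf. They comprise 8 abaxial regulators, the KANADI genes KAN1 (AT5G16560), KAN2 (AT1G32240), KAN3 (AT4G17695) and KAN4 (AT5G42630) and the YABBY genes FIL (AT2G45190), YAB2 (AT1G08465), YAB3 (AT4G00180) and YAB5 (AT2G26580), and 2 adaxial regulators, AS1 (AT2G37630) and AS2 (AT1G65620). They were chosen by name, out of 27444 nuclear protein-coding genes. A peak was given to such a gene when its summit lay inside the gene or within 2000 bp of it and no other protein-coding gene was nearer. This gave 19 peaks of the 38038 on the nuclear chromosomes, 5 of them from HD-ZIPIII proteins and 14 from TPL. A further 4 peaks lay between 2000 and 5000 bp away.

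The peaks come from chromatin immunoprecipitation with sequencing of whole Arabidopsis thaliana seedlings, ecotype Ler, 10 days old, grown at 21°C in long days. In each of 6 lines the native locus of REV, PHB, PHV, ICU4, ATHB8 or TPL was fused at its C-terminal end to a 2xYPet-3xHA tag, which was precipitated with an antibody against GFP. The first 5 make up HD-ZIPIII, the third class of plant transcription factors with a homeodomain next to a leucine zipper, ICU4 being the product of ATHB15, also known as CORONA, and TPL (TOPLESS) is a co-repressor. Each immunoprecipitation had an input from the same line and is represented by 1 peak list, so the values have no replicate error and proteins could not be tested against each other. Whether an untagged copy of the tagged gene remained in each line is not stated in the labels, and no line without a tag was analysed here. Whole seedlings were used, so binding in few cells and weak binding in many cells cannot be told apart.

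The faces of a leaf are specified by opposing sets of regulators. HD-ZIPIII proteins promote adaxial identity, and KANADI proteins, which are GARP-family transcription factors that mostly repress their targets, promote abaxial identity and oppose HD-ZIPIII activity. YABBY proteins, of which FIL and YAB3 are the best known in leaves, mark the abaxial side and promote growth of the blade. AS1, a MYB protein, and AS2, a LOB-domain protein, act as a complex that keeps KNOX meristem genes silent in leaves and favours adaxial fate. TPL does not bind DNA by itself in the usual view and is recruited by transcription factors that carry a repression motif.

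HD-ZIPIII peaks were found at 2 of the 10 genes, AS1 and KAN3, and TPL peaks at 6, namely AS1, KAN3, KAN1, FIL, YAB3 and YAB5. AS1 had peaks of PHB, PHV, ICU4 and TPL, and KAN3 had peaks of PHV, ICU4 and TPL. At KAN1, FIL, YAB3 and YAB5 TPL was the 1 protein with a peak. KAN2, KAN4, YAB2 and AS2 had no peak in any of the 6 lists. No REV and no ATHB8 peak was given to any of the 10 genes.

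**Figure D1:**
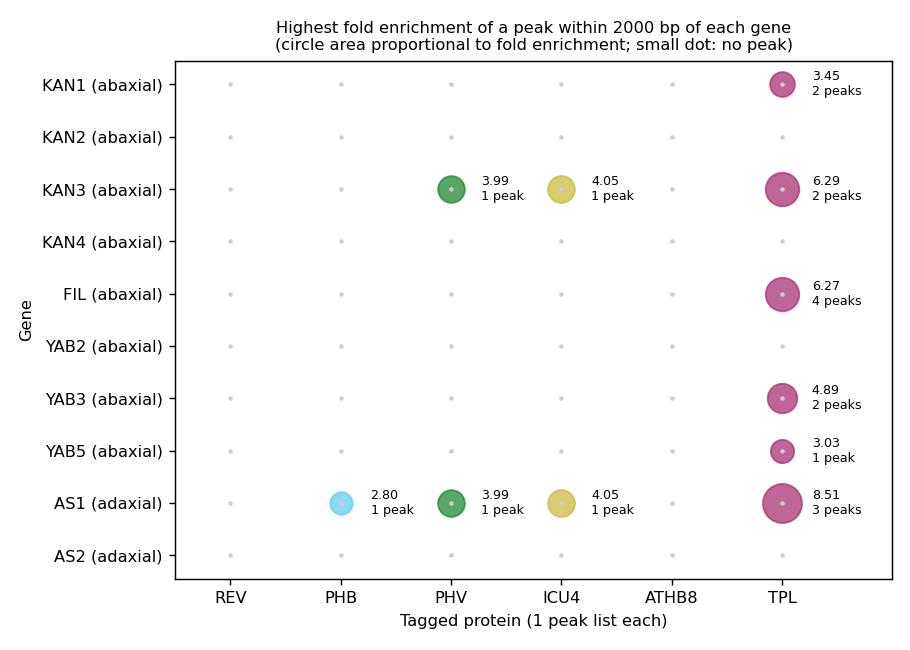
Highest fold enrichment, the authors' ratio of immunoprecipitated signal to local background, of a peak within 2000 bp of each gene (rows) in each of the 6 peak lists (columns); circle area follows fold enrichment, the text gives its value and the number of peaks, and a small dot means no peak. TPL circles run from 3.03 at YAB5 to 8.51 at AS1, HD-ZIPIII circles appear at AS1 and KAN3, and the REV and ATHB8 columns are empty.

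For the HD-ZIPIII proteins most of these counts lay close to what all genes showed, with PHV above it. An HD-ZIPIII peak of any kind was held by 20.0% of the 10 genes and by 26.9% of all protein-coding genes. ICU4 peaks were at 2 of the 10, against 22.3% of all genes, PHB peaks at 1, against 7.29%, and PHV peaks at 2, against 7.06%. The difference for PHV rests on 2 genes and was not tested. The background was 5.86% for REV and 3.52% for ATHB8, so that none among 10 genes is close to the general level. Peaks of at least 3 HD-ZIPIII proteins were found at 1 of the 10, AS1, and at 5.38% of all genes.

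TPL peaks were at 60.0% of the 10 genes, against 34.0% of all genes. At least 2 TPL peaks were held by 5 of the 10 (KAN1, KAN3, FIL, YAB3 and AS1), against 8.29% of all genes, and at least 3 by FIL and AS1, against 1.75%. A TPL peak without any HD-ZIPIII peak was found at 4 of the 10 and at 15.9% of all genes. No peak in any list was found at 4 of the 10 and at 57.2% of all genes. The 10 genes were chosen with earlier results of these data known and were not matched to other genes for length or for the space around them, so these shares are a description. When the lists were cut to equal length by −log10 q, the −log10 of the peak's p-value corrected for multiple testing, TPL peaks were left at 3 of the 10 genes, AS1, KAN3 and FIL, and at 8.69% of all genes.

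**Figure D2:**
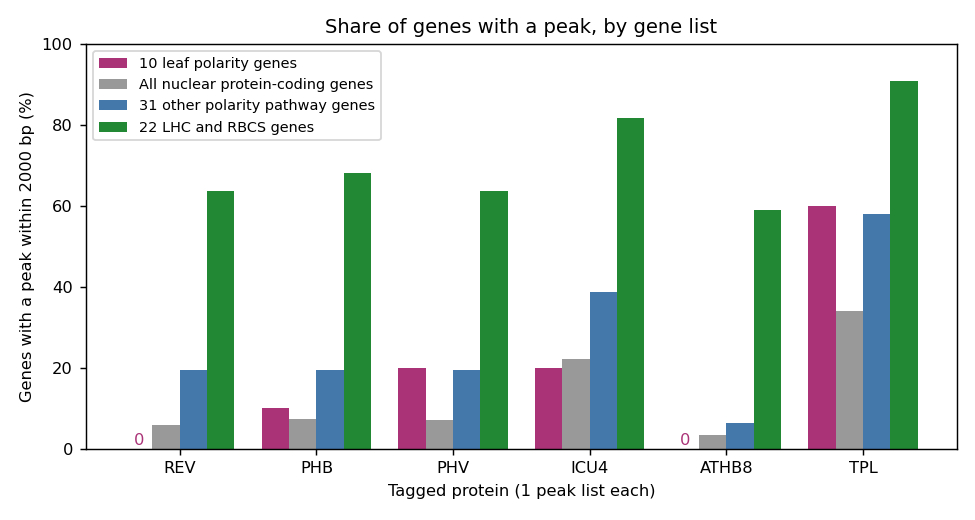
Percentage of genes with a peak within 2000 bp (vertical axis) in each of the 6 peak lists (horizontal axis), for the 10 leaf polarity genes, all nuclear protein-coding genes, 31 other genes of leaf polarity and 22 light-harvesting and RuBisCO genes. For the 10 genes the bars stand at 0 for REV and ATHB8, 20.0% for PHV and ICU4 and 60.0% for TPL, where all genes reach 34.0%.

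Of the abaxial regulators, 1 of 8 had an HD-ZIPIII peak (12.5%) and 5 of 8 a TPL peak (62.5%). Of the adaxial regulators, 1 of 2 had an HD-ZIPIII peak and the same gene, AS1, had the TPL peaks. At abaxial genes there were 11 TPL and 2 HD-ZIPIII peaks, and at AS1 3 of each. With 2 adaxial genes, a difference between the groups could not be tested, and both groups held genes with and without peaks.

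AS1 had peaks in more lists than any other of the 10 genes. Its peaks lay on chromosome 2 (TAIR10), outside the gene, between AS1 and EXP3 (AT2G37640), an expansin gene. The ICU4 peak ran from 15784283 to 15784533 with a fold enrichment of 4.05 and a −log10 q of 8.89, and the PHV peak from 15784344 to 15784531 with a fold enrichment of 3.99 and a −log10 q of 7.40. The PHB peak, from 15784298 to 15784589, had a fold enrichment of 2.80 and a −log10 q of 3.33 in its own list. All 3 lay wholly within a TPL peak from 15784171 to 15784784, whose fold enrichment was 8.51 and whose −log10 q was 173. The summits of the 4 proteins, at 15784397 for ICU4, 15784424 for PHV, 15784444 for TPL and 15784503 for PHB, fell within 106 bp. The TPL summit was thus 47 bp from that of ICU4, 20 bp from that of PHV and 59 bp from that of PHB.

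This TPL peak ranked 706 of 12785 by fold enrichment in its list, the highest rank among the TPL peaks of the 10 genes. Within their lists the ICU4 and PHV peaks of AS1 stood at the 80.5 and 81.0 percentiles, and the PHB peak at the 30.0 percentile. AS1 had another pair of weaker TPL peaks on the same side, with summits at 15783535 and 15785292. Their fold enrichments were 2.52 and 2.26, and neither met an HD-ZIPIII peak. Within 5000 bp of AS1, TPL peaks with summits at 15785900 and 15788377, enriched 4.79-fold and 4.42-fold, were nearest to EXP3. A TPL peak with its summit at 15777633, enriched 3.63-fold, was nearest to AT2G37610. The PHB peak fell below the median fold enrichment of the PHB list, 3.09.

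KAN3, an abaxial gene, had the second site at which HD-ZIPIII and TPL peaks coincided. It lay on chromosome 4, outside the gene, between KAN3 and AT4G17690. The ICU4 peak ran from 9847745 to 9847950 and the PHV peak from 9847773 to 9847957, both inside a TPL peak from 9847617 to 9848309. Their summits at 9847829 (ICU4), 9847840 (PHV) and 9847860 (TPL) fell within 31 bp. The TPL peak had a fold enrichment of 6.29 and ranked 1981 of 12785. On the other side of the gene, towards AT4G17700, a TPL peak of 1276 bp with its summit at 9851828 and a fold enrichment of 3.71 had no HD-ZIPIII counterpart.

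The ICU4 and PHV peaks of KAN3 carried the same values as those of AS1, 4.05 and 3.99 in fold enrichment. The pileup at the summit, the authors' measure of coverage, was also the same, 31 in the ICU4 list and 29.46 in the PHV list. These values come in steps, as 141 ICU4 peaks share the former combination of pileup and fold enrichment and 19 PHV peaks the latter. The sites of AS1 and KAN3 therefore cannot be ranked against each other in either list. In the TPL list they could be, with pileups of 313.9 at AS1 and 206.71 at KAN3.

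**Figure D3:**
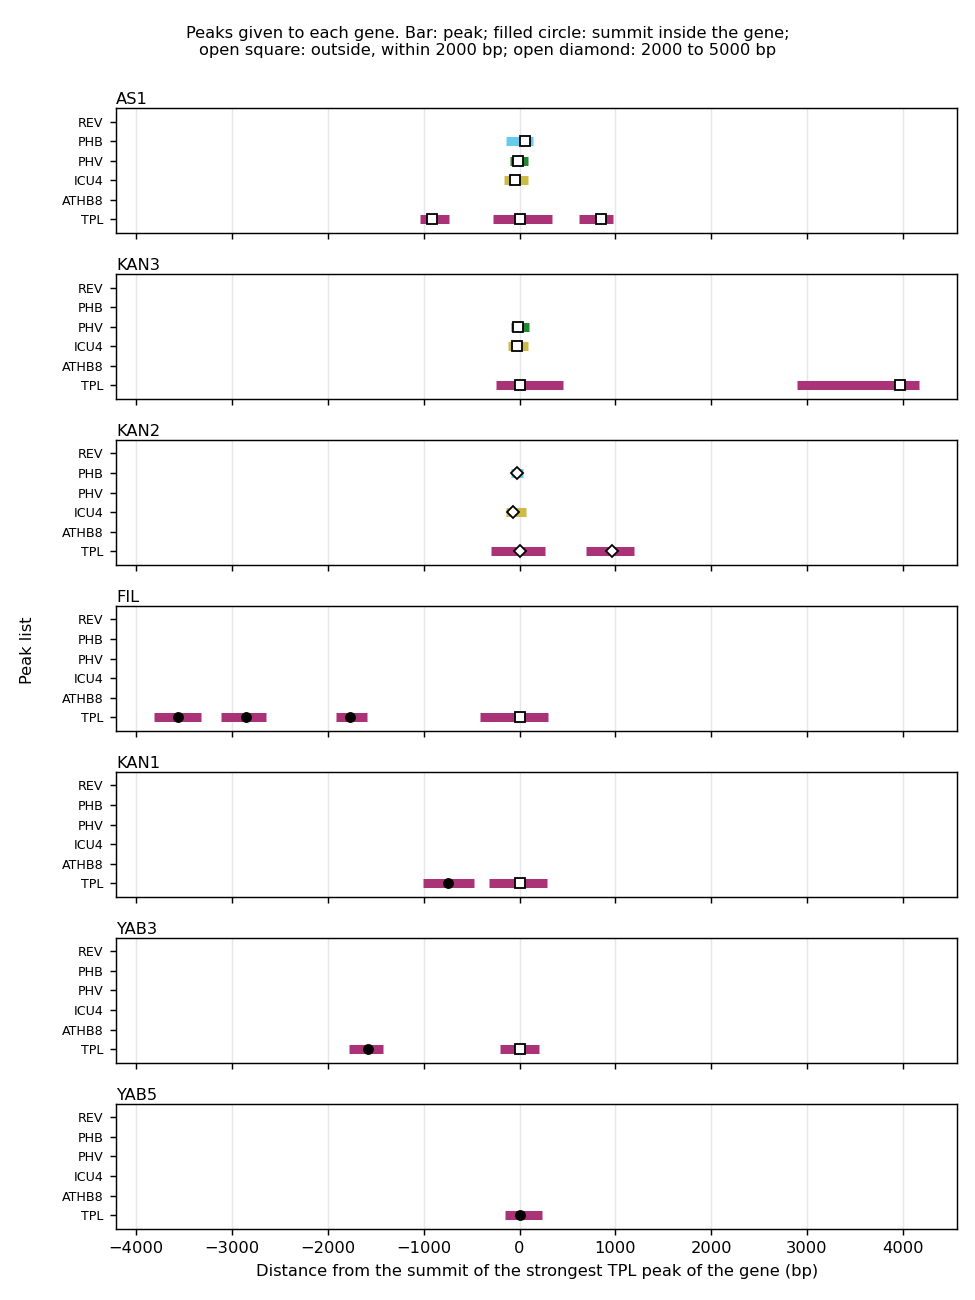
Peaks given to 7 genes in the 6 lists (rows within each panel), by distance in bp from the summit of the gene's strongest TPL peak; bars span the peaks, filled circles are summits inside the gene, open squares summits outside it within 2000 bp and open diamonds summits 2000 to 5000 bp away. HD-ZIPIII peaks at AS1, KAN3 and KAN2 lie at the strongest TPL peak, and the panels of FIL, KAN1, YAB3 and YAB5 hold TPL peaks alone.

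All 5 HD-ZIPIII peaks of the 10 genes overlapped a TPL peak by at least 1 bp. Among all HD-ZIPIII peaks within 2000 bp of a gene, 70.1% did so, the shares being 81.5% of PHB peaks, 77.9% of PHV peaks and 71.2% of ICU4 peaks, so 5 of 5 is near the general level. All 5 summits were within 100 bp of a TPL summit, against 35.0% of all HD-ZIPIII peaks near genes. These 5 lay at 2 sites, so they are not independent of each other. Overlap of 50% of both peaks was reached by 0 of 5, and by 7.29% of all HD-ZIPIII peaks near genes. The peak lengths fixed this result for the 5. They were 185 to 292 bp long, each less than 50% of the TPL peak of 614 or 693 bp around it. By gene, 2 of the 10 held an HD-ZIPIII peak that overlapped a TPL peak, against 17.2% of all genes.

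FIL, which encodes a YABBY protein of the abaxial side, had 4 TPL peaks on chromosome 2, a number that 0.306% of all genes reached. Of these, 3 had their summits inside the gene, at 18628701, 18629408 and 18630496, with fold enrichments of 5.40, 4.11 and 2.52. The strongest, from 18631855 to 18632563, lay outside towards GOS12, a Golgi SNARE gene, with a fold enrichment of 6.27 and rank 2001 of 12785. The TPL signal at FIL was therefore spread over 3563 bp from the first summit to the last, whereas the HD-ZIPIII lists had no peak given to the gene. On the opposite side of FIL, an ICU4 peak with its summit at 18626545 and a fold enrichment of 3.01 and a TPL peak with its summit at 18627180 were within 2000 bp of FIL but nearer to AT2G45180.

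YAB3, which acts redundantly with FIL in leaves, had a TPL peak with its summit inside the gene on chromosome 4 at 75057, with a fold enrichment of 2.33. A stronger TPL peak from 76428 to 76837, with a fold enrichment of 4.89, lay outside, towards the pectin methylesterase gene PME38, where the gene table also places a long non-coding RNA gene, AT4G03525, no farther from the summit than YAB3. YAB5 had a single TPL peak on chromosome 2, from 11305412 to 11305801, with its summit inside the gene and a fold enrichment of 3.03, below the TPL list median of 3.22. YAB2 had none of its own. From 2680590 to 2681351 on chromosome 1, a TPL peak enriched 5.95-fold was within 2000 bp of YAB2 but nearer to SSL3. Within 5000 bp of YAB2 an ICU4 peak with its summit at 2672470 and a PHB peak with its summit at 2672589, enriched 3.67-fold and 2.11-fold, were nearest to HDA08.

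KAN1, a founding KANADI gene that specifies abaxial cells in leaves, had TPL peaks on chromosome 5 from 5411298 to 5411832 and from 5411984 to 5412588. The first had its summit inside the gene and a fold enrichment of 2.39, and at that place the gene table also lists a long non-coding RNA gene, AT5G02555. The second lay outside towards GLN1;4, a glutamine synthetase gene, with a fold enrichment of 3.45 and a place at the 54.8 percentile of its list. No HD-ZIPIII peak was given to KAN1. Within 5000 bp of it a REV peak with a fold enrichment of 3.18 had its summit at 5404572 and was nearest to ZFN3. A TPL peak with its summit at 5405360, enriched 2.65-fold, was within 2000 bp of KAN1 but nearer to AT5G16550.

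KAN2, which acts redundantly with KAN1, gained peaks when the limit was widened from 2000 to 5000 bp. They lay on chromosome 1 between KAN2 and RCD1, a gene of oxidative stress responses. An ICU4 peak from 11621931 to 11622137 had a fold enrichment of 3.04 and a PHB peak from 11621981 to 11622106 one of 2.94, both below the median of their list. Both lay inside a TPL peak from 11621779 to 11622336 with a fold enrichment of 5.19, and the 3 summits fell within 73 bp. A second TPL peak with its summit at 11623041 had a fold enrichment of 3.38. With these, 3 of the 10 genes held an HD-ZIPIII peak that overlapped a TPL peak, against 17.6% of all genes. At this wider limit 28.1% of all genes had an HD-ZIPIII peak of any kind, 22.8% an ICU4 peak, 7.61% a PHB peak and 34.7% a TPL peak.

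KAN4, known for its role in the ovule integument, had no peak of any protein within 5000 bp, whichever gene the peak was nearest to. AS2 had no peak given to it either, and within 5000 bp of it lay TPL peaks with fold enrichments of 2.36 and 2.85 that were nearest to KOR2 (AT1G65610). In all, 11 of the 27 TPL and 5 of the 12 HD-ZIPIII peaks within 5000 bp of the 10 genes were nearest to another gene, among them an ATHB8 peak with its summit at 9846351, within 2000 bp of KAN3 and nearest to AT4G17690. AS1 and AS2, whose products act together, thus differed in the number of lists with a peak, 4 and 0. Having no peak in any list was shared by AS2 with KAN2, KAN4 and YAB2, and with 57.2% of all genes. Single genes were not tested between lists, and a missing peak shows only that nothing passed the authors' threshold.

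Across the 10 genes the 14 TPL peaks ranged in fold enrichment from 2.26 to 8.51, with a median of 3.58, against 3.18 for all TPL peaks within 2000 bp of a gene. Of the 14, 8 stood above the 50 percentile of the list. Summits inside the gene made up 6 of the 14 (42.9%), all at abaxial genes, where they were 6 of 11, while the 3 at AS1 were outside. Of all TPL peaks within 2000 bp of a gene, 52.9% had the summit inside. AS1 and KAN3 had TPL summits outside the gene alone. FIL, YAB3 and KAN1 had summits both inside and outside, and their strongest TPL peak lay outside. Of all genes with at least 2 TPL peaks, 54.9% had the summit of the strongest outside.

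**Figure D4:**
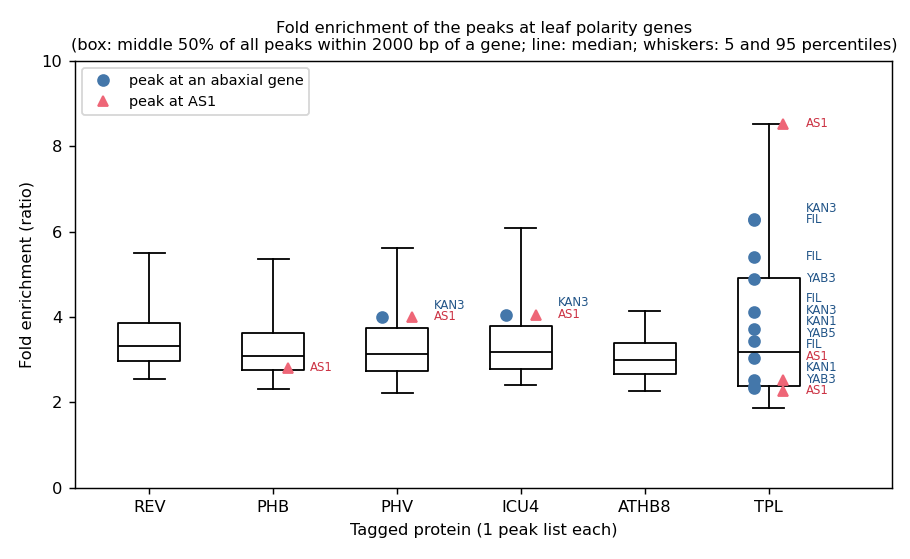
Fold enrichment, a ratio without unit (vertical axis), of the peaks at the leaf polarity genes in each of the 6 lists (horizontal axis), with circles for abaxial genes and triangles for AS1, beside boxes for all peaks of that list within 2000 bp of a gene (line: median; box: middle 50%; whiskers: the 5 and 95 percentiles). The strongest AS1 peak, at 8.51, reaches the top whisker of TPL, and the PHV and ICU4 peaks of KAN3 and AS1 lie just above their boxes.

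The pattern of AS1 over the 6 lists was shared by other genes. Besides AS1, 335 genes, out of 27444 nuclear protein-coding genes, had peaks of PHB, PHV, ICU4 and TPL and none of REV and ATHB8. The likeness was measured as the mean absolute difference, over the 6 lists, in the percentile of the strongest peak, with 0 where there was none. The closest genes were CYCD1;1 (AT1G70210), a D-type cyclin gene, with a mean difference of 2.37 percentile points, LSH10 (AT2G42610) with 2.38, and AT3G07320 with 2.78. At CYCD1;1 the fold enrichment was 2.82 in the PHB list, 3.90 in the PHV list, 4.2 in the ICU4 list and 6.55 in the TPL list.

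Other genes of leaf polarity were counted by the same rule, 31 of 32 listed genes being matched to a protein-coding gene. Of these 31, 15 had an HD-ZIPIII peak (48.4%, against 26.9% of all genes) and 18 a TPL peak (58.1%, against 34.0%). The smaller groups are read against the same shares of all genes. The HD-ZIP genes and their inhibitors stood highest, with an HD-ZIPIII peak at 9 of 11 and a TPL peak at 9. This group holds the tagged loci themselves. At REV and ATHB8 the HD-ZIPIII peak came only from the list of the same protein, with fold enrichments of 2.7 and 2.54. The peaks at PHB included one from its own list, at 2.91. ATHB15, the locus tagged as ICU4, had a stronger one from the ICU4 list, at 7.98. PHV had none from its own list. The adaxial HD-ZIPII genes ATHB2, HAT3 and ATHB4 and the HD-ZIPIII gene PHB had peaks in all lists but ATHB8, with ICU4 fold enrichments of 8.23, 8.61, 9.37 and 4.69, each above the 4.05 of AS1 and KAN3. Among genes repressed by AS1 and AS2 or acting beside them, 2 of 8 had an HD-ZIPIII peak and 4 a TPL peak. KNAT6, a KNOX gene, had REV, PHV, ICU4 and TPL peaks, with a TPL fold enrichment of 7.37. BP, a KNOX gene that AS1 and AS2 repress directly, had PHB, PHV and ATHB8 peaks and no TPL peak. The fold enrichments were 3.37, 2.18 and 3.25. KNAT2, another KNOX gene of this list, had a TPL peak alone, at 3.67. The blade-growth genes WOX1 and PRS had a TPL peak alone, with fold enrichments of 7.86 and 3.91.

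Of 7 auxin-response-factor and small-RNA pathway genes, 4 had an ICU4 peak, against 22.3% of all genes, none had a peak of another HD-ZIPIII protein and 4 had a TPL peak. ETT, an auxin response factor that works with KANADI proteins, had fold enrichments of 3.31 for ICU4 and 4.68 for TPL. AGO10, which sequesters the microRNAs that target HD-ZIPIII transcripts, had an ICU4 fold enrichment of 2.82, and its TPL peak was also weaker than that of ETT. RDR6 and SGS3 had an ICU4 peak alone, at 3.93 and 2.66. ARF4 and AGO7 had a TPL peak alone, at 3.04 and 2.13. Of the 5 other YABBY genes and YABBY partners, CRC had a TPL peak, at 2.97, and INO, LUG, LUH and SEU had none in any list. As a reference for strongly transcribed genes, 21 of 22 light-harvesting and RuBisCO genes had an HD-ZIPIII peak and 20 a TPL peak, the share with a REV peak being 63.6% and with an ATHB8 peak 59.1%. Transcription of the 10 leaf polarity genes was not measured here, and its part in their peaks was not tested.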

How the data were processed

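Reads were processed with Bowtie2 and MACS2 on TAIR10, per the submitters' processing notes. Versions, settings and whether the duplicates named in the series text were pooled are not given in the sources used here. The deposited lists hold, per the file headers, the pileup, a coverage signal at the summit whose scaling is not stated, the p-value and q-value as −log10 values, and the fold enrichment, a ratio the authors computed for each peak. These are the authors' values and were read only within a list. Depth is unknown, since the lists hold no read counts.

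Peaks on the 5 nuclear chromosomes were kept, which left out 78. Summits were given to the nearest protein-coding gene of the RefSeq table of TAIR10.1 (Python 3.11.15, pandas 2.3.3), ties going to each gene. As the table's build is named differently from the files', it served for names and neighbours, and no gene coordinates or distances are printed. The assignment was tested on simulated positions placed in or beside genes of the same table. This checks the code, and not the table or the difference in build. Strand and sequence were not used here, so the planned motif search was not run. Peaks overlapped when sharing at least 1 bp. The members and lists were chosen with earlier results of these data known. All 10 members are named. Of each other list up to 4 genes in most peak lists are named, ties going to the higher REV, then TPL, fold enrichment, and further genes were named after their values were seen. Alternatives were other distance limits, gene assignments, peak thresholds and overlap definitions.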

Additional observations from a re-analysis of the deposited data

How the results depend on the processing

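Of 82 values recomputed under 8 alternatives, 69 stayed within 1.5 times the reported count. Many of these counts are small, so this rule says little about them. A change from 2 to 3 members with an ICU4 peak passed it, as did each count that stayed at 0. With a limit of 5000 bp, the members with a PHB peak became 2 and the abaxial members with an HD-ZIPIII peak 2, through KAN2. With 1000 bp, the members with a PHB peak became 0 and those with at least 3 HD-ZIPIII proteins 0, as the PHB peak of AS1 was lost. When a peak counted for every gene within 2000 bp, 1 member had an ATHB8 peak (KAN3), 2 abaxial members had an HD-ZIPIII peak and 2 members had at least 3 HD-ZIPIII proteins. Peaks at or above the median fold enrichment of their list left 0 members with a PHB peak and 0 with at least 3 HD-ZIPIII proteins. Lists of equal length, 2790 peaks each, left 3 members with a TPL peak and 12 of the other polarity genes with any peak, in place of 21. For those 12 the share of all genes under the same rule was not computed. Nor was it for the 1000 bp limit, for every gene within 2000 bp or for the median threshold. Those counts therefore have no background beside them. With overlap of 50% of both peaks, the counts of members and of HD-ZIPIII peaks that met a TPL peak became 0. The peak lengths fixed these counts, as each HD-ZIPIII peak was shorter than 50% of the TPL peak around it. Assignment to the nearest gene of any kind, chosen after seeing the data, kept the same members in each list. No paired analysis was possible because each protein had 1 list, and no replicate could be left out. Unknown depth limits what a missing peak can show.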
